A study of Homo sapiens with 6 samples.

Results

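The regions described here are the ChIRP-seq peaks of the long noncoding RNA DINO that lie near the ends of chromosomes 1 to 22 and X. A peak was a member when its summit lay within 500 kb of the outermost base that any of the 4 deposited peak lists covered at that end. The p-arm ends of the acrocentric chromosomes 13, 14, 15, 21 and 22 were left out, which left 41 ends, 18 at low coordinates (p arms) and 23 at high coordinates (q arms). The members numbered 1147 of 105669 peaks in the untreated even list, 259 of 34695 in the untreated odd list, 1173 of 116171 in the RNase-treated even list and 379 of 57466 in the RNase-treated odd list. Members were thus chosen by the measured position of their summits, the outermost base was itself set by a peak, and the zones were proposed with results of these data known, so the comparisons below describe these lists and none is a test.

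All libraries came from U2OS, an established osteosarcoma line with wild-type p53, after 24 h in 0.2 µg/mL doxorubicin, a drug that breaks DNA. ChIRP-seq sequences the DNA that biotin-tagged probes against an RNA bring down from crosslinked chromatin, here fixed with glutaraldehyde. The probes for DINO formed 2 independent sets, even and odd, and each was applied with and without prior RNase, a control for DNA that is recovered independently of RNA. Of 6 samples, 4 had a peak list, and the 2 input samples were not analysed here. Each condition is a single library, so there is no replicate spread and no p-value, and the read depth behind each list is unknown.

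DINO is induced by DNA damage and acts with p53 on genes of the damage response. Chromosome ends consist of telomere repeats and, inside them, subtelomeric DNA, which is known for duplicated segments, tandem repeats and, on many arms, dense genes. U2OS keeps its telomeres without telomerase, by the recombination-based ALT pathway, and its telomeres are transcribed into the repeat RNA TERRA. Telomere repeats themselves were not measured, because peaks have positions only in the assembled chromosomes.

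The outermost peak lay at different depths on different arms. On the 17 autosomal p arms used, the first covered base ranged from position 664 on chromosome 17 to position 760939 on chromosome 1, with a median of 85144 (hg19, the build named in the submitters' processing notes). On chromosome X no list had a peak before position 2709448. The tip of Xp is the pseudoautosomal region that X shares with Y, which carries SHOX, a regulator of limb bone growth. The Xp zone therefore lay further from the telomere than the autosomal zones. Together the zones covered 20.5 Mb, 0.696% of the length between the outermost peaks.

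The first comparison set peak density in the zones against the rest of the chromosomes. Peaks of the even probe set were denser near the ends in both RNase states. The untreated even list had 55.95 peaks per Mb in the zones and 35.8 elsewhere, a ratio of 1.56 (exact 95% binomial interval 1.47 to 1.66). The RNase-treated even list had 57.2 and 39.3 peaks per Mb, a ratio of 1.45 (1.37 to 1.54). For the odd probe set, zones and rest did not differ by more than counting error. Its untreated list had 12.6 peaks per Mb in the zones and 11.8 elsewhere, a ratio of 1.07 (0.945 to 1.21), and its RNase-treated list had 18.5 and 19.5, a ratio of 0.947 (0.853 to 1.05). The odd intervals include 1 and lie below both even intervals. With zones of 1 Mb the untreated odd ratio was 1.10 (1.01 to 1.20), and over 100 kb bins that held any peak the RNase-treated odd ratio was 0.898 (0.810 to 0.994), so both then lay just beyond counting error, in opposite directions. These intervals allow for counting error alone, and neighbouring peaks are not independent of each other.

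The make-up of the peaks shifted accordingly. Even peaks were 81.6% of the 1406 untreated peaks in the zones (Wilson 95% interval 79.5 to 83.5) and 75.2% of the 138958 untreated peaks elsewhere. The difference was 6.36 percentage points (Newcombe 95% interval 4.24 to 8.31). After RNase, even peaks were 75.6% of 1552 peaks in the zones and 66.8% of 172085 elsewhere, a difference of 8.75 points (6.54 to 10.8).

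The excess of even peaks was not limited to the outermost 500 kb. With distance from the nearer end, the untreated even density was 55.95 peaks per Mb within 0.5 Mb, 59.5 from 0.5 to 1 Mb and 62.4 from 1 to 2 Mb. Further in it was 54.1 from 2 to 5 Mb, 45.0 from 5 to 10 Mb, 40.1 from 10 to 20 Mb and 32.2 beyond 20 Mb. The RNase-treated even list followed the same course, with 57.2, 59.7, 62.5, 56.0, 47.4, 43.2 and 36.2 peaks per Mb. The highest even density of these classes was thus at 1 to 2 Mb, and the members lay on the outer, slightly lower side of it. The untreated odd list moved within narrower bounds, from 12.6 in the zones to 14.7 at 1 to 2 Mb and 11.2 beyond 20 Mb. The RNase-treated odd list had 18.5, 22.5 and 18.8 peaks per Mb at the same distances. The zones were nominally its lowest class, but with 379 peaks there 18.5 is too close to 18.8 to rank.

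**Figure D1:**
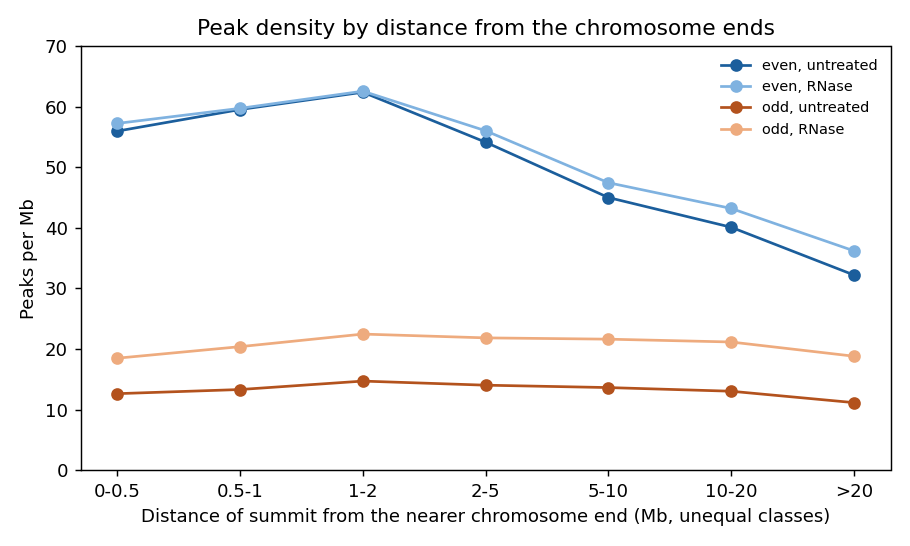
Peaks per Mb (y axis) by distance of the summit from the nearer chromosome end (x axis, Mb, in classes of unequal width) for the 4 lists, 1 line per list and no error bars. Both even lines are highest at 1 to 2 Mb (62.4 and 62.5) and fall to 32.2 and 36.2 beyond 20 Mb, while the odd lines stay between 11.2 and 22.5.

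Within the zones the untreated densities moved by a few counting errors at most. In steps of 50 kb the untreated even density was 52.7 peaks per Mb in the outermost step, 48.3 at 200 to 250 kb and 63.9 at 450 to 500 kb, and with 99 to 131 peaks in each step these values are only a few counting errors apart at most. The untreated odd list had 12.7 in the outermost step, a highest value of 15.6 at 250 to 300 kb and 12.2 at 450 to 500 kb. In both even lists each step from 250 to 500 kb was denser than each step nearer to the end. The RNase-treated odd density varied more. It was 13.2 at 200 to 250 kb (27 peaks), 24.9 at 250 to 300 kb (51 peaks) and 13.7 at 300 to 350 kb (28 peaks). The threshold of 500 kb had, in each list, a peak just inside and a peak just outside it on different arms, with folds from 5.34 to 45.3. The untreated even member just inside it lay 499972 bp from the end of 8p (fold enrichment 7.14, 124 bp wide), and the first peak outside lay 500132 bp from the end of 18p (fold 11.1, 295 bp). For the untreated odd list these were 497064 bp from the end of 7p (fold 45.3, 395 bp) and 501376 bp from the end of 13q (fold 6.26, 120 bp). For the RNase-treated even list they were 499787 bp from the end of 10q (fold 9.28) and 500110 bp from the end of 18p (fold 13.5), and for the RNase-treated odd list 497415 bp from the end of 6q (fold 5.34) and 501371 bp from the end of 13q (fold 14.8). Here and below the fold is the authors' own enrichment at the summit over the peak caller's background, a value made within each list.

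The second comparison was between single ends. Each of the 41 ends held at least 1 peak of every list. The untreated even list had 7 to 49 peaks per end with a median of 28, and the RNase-treated even list 7 to 54 with a median of 29. The untreated odd list had 1 to 16 with a median of 6, and the RNase-treated odd list 2 to 20 with a median of 8. The even excess was spread over many ends, since 33 of 41 were denser than the rest of their own chromosome without RNase and 35 with it. In the odd lists this held for 19 ends in each state. The median ratio of an end to the rest of its chromosome was 1.41 and 1.32 in the even lists and 0.919 and 0.891 in the odd lists. The ratio of 1.07 for all untreated odd peaks was therefore above that of the median end. The rest of a chromosome included its centromere gap, which lowers the density there. The values for single ends were not recomputed over occupied bins.

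The lists were next set side by side at each end. Both even lists were denser than the rest of the chromosome at 31 ends and both odd lists at 16. At 14 ends all 4 lists were denser, at 14 both even lists were denser and neither odd list was, at 1 the reverse held, and at 2 no list was denser. With the even lists denser at most ends, ends of the second kind also arise where the probe sets are unrelated. The numbers expected in that case were not computed, so these counts do not show that the sets parted. Across the 41 ends peak counts with and without RNase had a Pearson r of 0.93 for the even set and 0.88 for the odd set (Spearman rho 0.92 and 0.87). Between the probe sets r was 0.37 without RNase and 0.38 with RNase (rho 0.43 and 0.41). These describe ends of the same cells, which share copy number and the mappability of their sequence, and chromosome ends are not replicates.

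**Figure D2:**
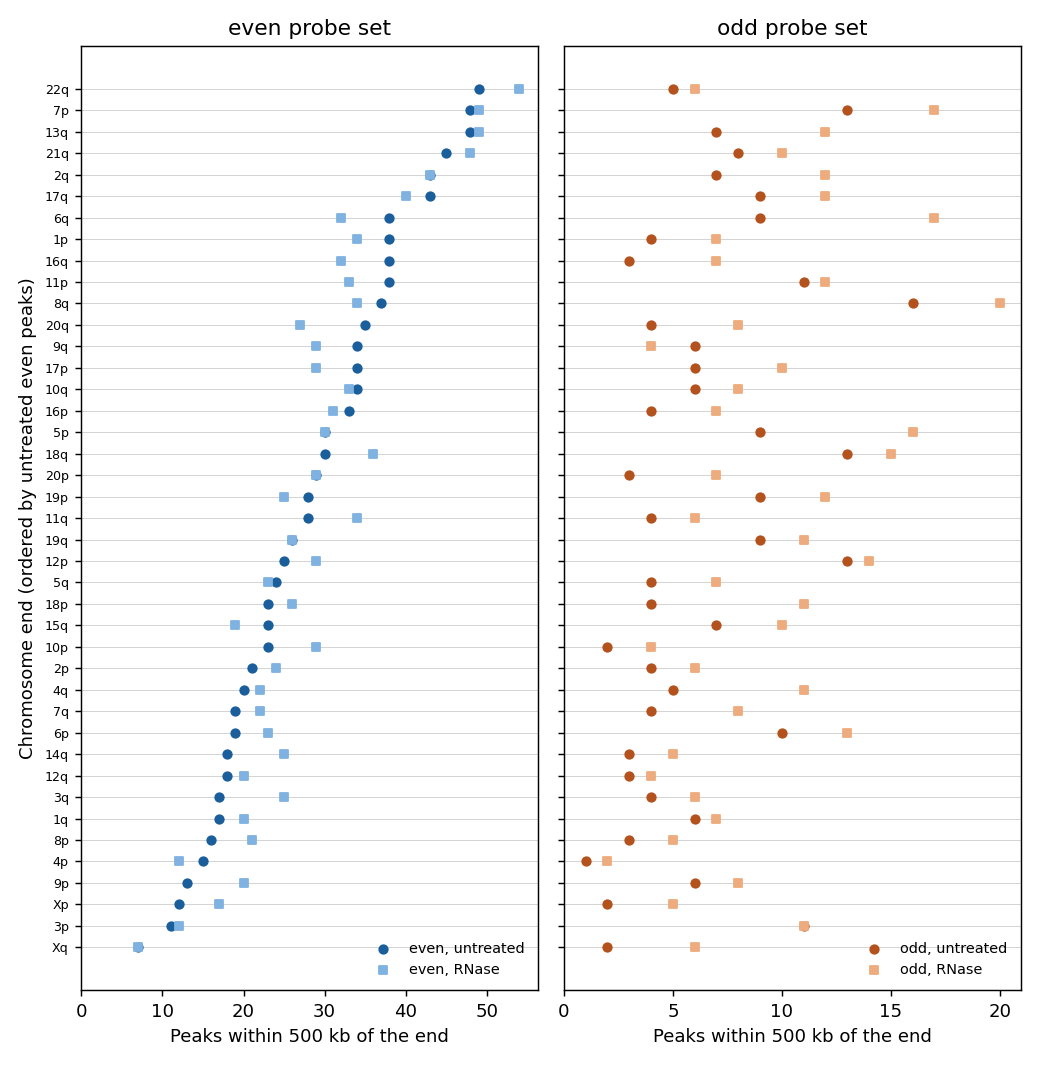
Peaks within 500 kb of each of the 41 ends (x axis, number of peaks; y axis, ends named by chromosome and arm in order of the untreated even count), even set on the left and odd set on the right, circles for untreated and squares for RNase-treated chromatin. Even counts run from 7 at Xq to 49 and 54 at 22q, while odd counts, from 1 at 4p to 16 and 20 at 8q, do not follow the even order closely.

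The ends richest in untreated even peaks by count were 22q, 7p and 13q. Their ratios to the rest of their own chromosome were 1.58, 2.75 and 3.67, where the rest of chromosome 22 had 61.9 untreated even peaks per Mb. The 22q end had 49 untreated and 54 RNase-treated even peaks, but only 5 and 6 odd peaks. In a RefSeq gene table of another assembly, GRCh38.p14, the outermost protein-coding genes of 22q are RABL2B, ACR and SHANK3, of which ACR encodes the sperm protease acrosin and SHANK3 a scaffold of excitatory synapses. The 7p end had 48 and 49 even peaks and 13 and 17 odd peaks, so it was rich in both sets. Named genes near the tip of 7p in that table include FAM20C, a kinase of secreted proteins, and PDGFA, a growth factor. The 13q end had 48 and 49 even and 7 and 12 odd peaks. Its outermost genes are CHAMP1, UPF3A and CDC16, the second a factor of nonsense-mediated decay and the third a subunit of the anaphase-promoting complex. Peaks could not be placed in genes, since no annotation of hg19 was used here, and the genes named here and below need not lie within the zones.

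The ends poorest in untreated even peaks by count were Xq, 3p and Xp. Xq had 7 even peaks in each state and 2 and 6 odd peaks, and Xp had 12 and 17 even and 2 and 5 odd peaks. The rest of X was itself sparse, with 16.8 untreated even peaks per Mb. Relative to it Xp was denser in even peaks (ratios 1.43 untreated and 1.55 after RNase) and Xq sparser (0.836 and 0.637). The 3p end had 11 untreated and 12 RNase-treated even peaks and 11 odd peaks in each state. It was the single end at which both odd lists, and neither even list, were denser than the rest of the chromosome. Its ratios were 0.600 untreated and 0.585 after RNase for the even lists, and 1.69 and 1.01 for the odd lists. In the same gene table the named genes nearest to the tip of 3p are CHL1, CNTN6 and CNTN4, which encode neural cell adhesion molecules. Their positions were not set against the zone, so they may lie outside it.

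Odd peaks were most numerous at 8q, with 16 untreated and 20 RNase-treated peaks beside 37 and 34 even peaks. The genes nearest to the tip of 8q in the gene table include the zinc-finger genes ZNF16 and ZNF250. Next in the untreated odd list were 7p, 12p and 18q with 13 peaks each. After RNase these had 17, 14 and 15. The fewest untreated odd peaks were at 4p, with 1 peak, which had 2 after RNase, and at 10p, Xp and Xq, with 2 each. The even lists had 15 and 12 peaks at 4p and 23 and 29 at 10p, so neither end was empty of peaks.

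The third comparison was of the width and strength of the peaks. Most members were narrow and of the same size as other peaks. The median width of the untreated even members was 195 bp (quartiles 140 and 305.5), against 186 bp elsewhere, and that of the RNase-treated even members was 203 bp, against 191 bp. The untreated odd members had a median of 162 bp, against 172 bp, and the RNase-treated odd members 177 bp, against 173 bp. The difference was 9 bp for the untreated even list (95% interval of the members' median, by order statistics, 2 to 19) and 12 bp for the RNase-treated even list (0 to 22). It was -10 bp (-22 to 1) and 4 bp (-14 to 17) for the odd lists. Among peaks with a −log10 q-value from 10 upward the last of these was -15 bp.

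Very wide peaks were more frequent among the even members. A width of at least 800 bp, a threshold set with these data known, was reached by 17 of 1147 untreated even members, 1.48% (Wilson 95% interval 0.927 to 2.36), against 0.405% of other peaks and 0.416% of all peaks of that list. After RNase it was reached by 18 of 1173 members, 1.53% (0.973 to 2.41), against 0.404% elsewhere and 0.416% of all. In each odd list 1 member was this wide. That is 0.386% (0.0682 to 2.15) of the untreated odd members, against 0.0461% of all untreated odd peaks. After RNase it is 0.264% (0.0466 to 1.48), against 0.0418% of all. The odd shares thus went the same way, but each rests on 1 peak. The 17 wide untreated even members were spread over 13 ends. On q arms there were 13 of these members and on p arms 4, where q arms held 691 and p arms 456 of all 1147 members. The folds of the 17 ran from 25.7 to 85.1. All 17 overlapped an RNase-treated even peak, and 1 overlapped a peak of either odd list. Of all untreated even peaks of any width, 19.1% overlapped no RNase-treated even peak and 1.23% overlapped an untreated odd peak. Wider peaks meet others more easily, and the overlaps of wide peaks elsewhere are not given here.

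The widest even member lay on 22q at chr22:50775505-50779210, 397 kb from the end, with a width of 3706 bp and a fold of 51.8. The RNase-treated even list had a peak of 3687 bp there (fold 95.5), and it was also the widest member of that list. Neither odd list had a peak at this position. The next in width were on 10q at chr10:135150535-135153760 (3226 bp, fold 74.96) and on 2q at chr2:242806295-242808377 (2083 bp, fold 47.7), which were 3237 bp and 2313 bp wide after RNase. The wide member nearest to an end was on 20q at chr20:62900759-62902028, where its last base was the outermost covered base of the arm. It was 1270 bp wide without RNase (fold 64.4) and 1264 bp with RNase (fold 105). Of the 17, the member on 2q at chr2:242838087-242839175 stood apart from the others, since it was 1089 bp wide without RNase (fold 32.3) and the RNase-treated peak there was 184 bp wide (fold 7.30). The reverse was seen on 11p at chr11:356729-357990, where the RNase-treated even member was 1262 bp wide (fold 10.4) and the untreated peak 274 bp (fold 9.37). The widest odd member in both states lay on 17p at chr17:412218-413141, with 924 bp (fold 60.995) untreated and 1034 bp (fold 92.8) after RNase, and no even peak overlapped it. The wide members other than the widest of each list were named after their values were seen.

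The members' folds were close to those of other peaks. The median fold was 10.8 in the zones and 10.9 elsewhere for the untreated even set, 10.1 and 10.2 for the untreated odd set, 11.3 and 11.8 for the even set after RNase, and 11.05 and 10.96 for the odd set after RNase. High folds made up a smaller share near the ends in each list, within counting error. Folds from 50 upward belonged to 39 untreated even members, 3.40% (2.50 to 4.61), where 4.01% of all peaks had them, and to 11 untreated odd members, 4.25% (2.39 to 7.44), where 6.80% of all did. After RNase they belonged to 90 even members, 7.67% (6.28 to 9.34), beside 8.54% of all, and to 29 odd members, 7.65% (5.38 to 10.8), beside 10.6% of all. The share of all peaks lay inside each of these intervals, so none of these differences was larger than counting error.

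**Figure D3:**
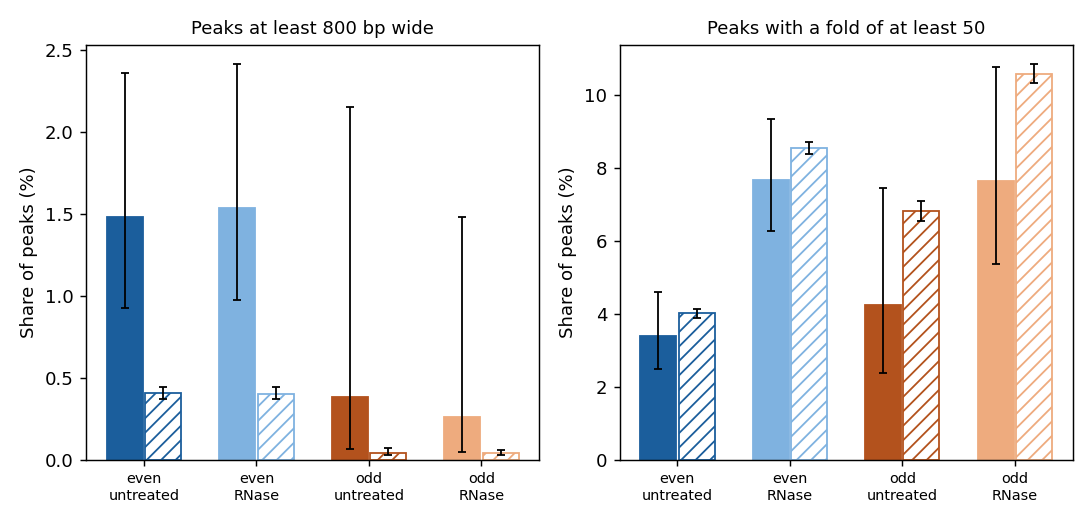
Share of peaks (y axis, %) at least 800 bp wide (left) and with a fold of at least 50 (right) in each list, solid bars for peaks within 500 kb of an end and hatched bars for the rest of the chromosomes, with Wilson 95% intervals for counting error. The wide share is 1.48% and 1.53% near the ends in the even lists against 0.405% and 0.404% elsewhere, while the intervals of the high-fold bars overlap in each list.

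The strongest member of each list was found by its probe set in both RNase states, and weakly or not at all by the other set. The untreated even member of highest fold lay on 2q at chr2:242558841-242560281 (fold 85.1), where the RNase-treated even list had a fold of 124 and the odd lists had weak peaks, with folds of 5.99 untreated and 5.30 after RNase. The highest RNase-treated even member lay on 15q at chr15:102227589-102227961 (fold 125), with a fold of 79.6 in the untreated even list and no odd peak. The highest untreated odd member lay on 7p at chr7:219523-220036 (fold 93.4), with 124 after RNase and no even peak. The highest RNase-treated odd member lay on 6q at chr6:170774163-170774716 (fold 156), with 82.7 untreated and no even peak. Folds over 2 lists are set side by side only, since each was made within its list.

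The fourth comparison was whether a member was found again by the same probe set in the other RNase state, the question of dependence on RNA. Most members without RNase were also present with RNase. Of the untreated even members 915 of 1147 overlapped an RNase-treated even peak, 79.8% (77.4 to 82.0), against 80.9% elsewhere, and 232 did not, where 19.1% of all peaks of that list did not. The difference was -1.12 points (-3.55 to 1.12). Of the untreated odd members 231 of 259 overlapped an RNase-treated odd peak, 89.2% (84.8 to 92.4), against 91.6% elsewhere, and 28 did not, where 8.41% of all did not. The difference was -2.42 points (-6.80 to 0.820), and with reciprocal 50% overlap it was 1.27 points. Within 500 kb these differences were not larger than counting error. With zones of 1 Mb they were, at -2.003 points (-3.71 to -0.390) for the untreated even list and -3.49 points (-6.52 to -0.991) for the untreated odd list, so slightly fewer untreated peaks there had an RNase-treated counterpart.

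The reverse direction counts nearly the same overlaps over the longer RNase-treated lists. There a larger share of members than of other peaks had a counterpart. Of the RNase-treated even members 910 of 1173 overlapped an untreated even peak, 77.6% (75.1 to 79.9), against 73.4% elsewhere, and 263 did not, where 26.5% of all did not. The difference was 4.15 points (1.66 to 6.46). Of the RNase-treated odd members 231 of 379 overlapped an untreated odd peak, 60.9% (55.95 to 65.7), against 55.2% elsewhere, and 148 did not, where 44.8% of all did not. The difference was 5.76 points (0.746 to 10.6), but it was -2.06 points (-8.04 to 3.70) among peaks with a −log10 q-value from 10 upward. With the rest weighted to the strength of the members, it was 2.44 points for the even list and 3.51 for the odd list.

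Members without a counterpart were weaker and narrower. In the untreated even list their median fold was 7.05 and their median width 138 bp, against 12.1 and 224 bp for members with one. In the untreated odd list the values were 6.03 and 121.5 bp, against 10.8 and 169 bp. The strongest untreated even members without an RNase-treated counterpart, named after their values were seen, lay on 22q at chr22:50745061-50745375 (fold 28.0), on 5p at chr5:508066-508332 (fold 27.9) and on 5q at chr5:180576043-180576275 (fold 26.4). None of the 3 overlapped an odd peak. The strongest untreated odd member of this kind lay on 11p at chr11:196462-196730 (fold 21.6), 2.6 kb from the outermost covered base, and the next had a fold of 9.29. In the reverse direction folds reached 23.03 among the 263 even and 24.46 among the 148 odd members found only after RNase. The even value was below and the odd value above the highest untreated one, but each fold was made within its list.

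The fifth comparison was whether the other probe set found the same positions. Few members were shared. Of the untreated even members 9 of 1147 overlapped an untreated odd peak, 0.785% (0.413 to 1.48), against 1.23% elsewhere and 1.23% of all, a difference of -0.449 points (-0.826 to 0.254). Of the untreated odd members 9 of 259 overlapped an untreated even peak, 3.47% (1.84 to 6.47), against 3.78% elsewhere and 3.78% of all, a difference of -0.303 points (-1.95 to 2.70). The untreated even peaks covered 1.40% of the length of the zones and 0.813% of the rest. The untreated odd members thus met an even peak no more often, although more of the zones was covered by even peaks. With 9 such members the interval is too wide to set against the difference in coverage. After RNase 20 of 1173 even members were shared, 1.71% (1.11 to 2.62), against 1.61% elsewhere and 1.61% of all, a difference of 0.0928 points (-0.510 to 1.01). Of the RNase-treated odd members 20 of 379 were shared, 5.28% (3.44 to 8.01), against 3.27% elsewhere and 3.28% of all. This difference was 2.01 points (0.167 to 4.74), and 0.0636 points among peaks with a −log10 q-value from 10 upward and 0.785 points (-0.168 to 2.70) with reciprocal 50% overlap.

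**Figure D4:**
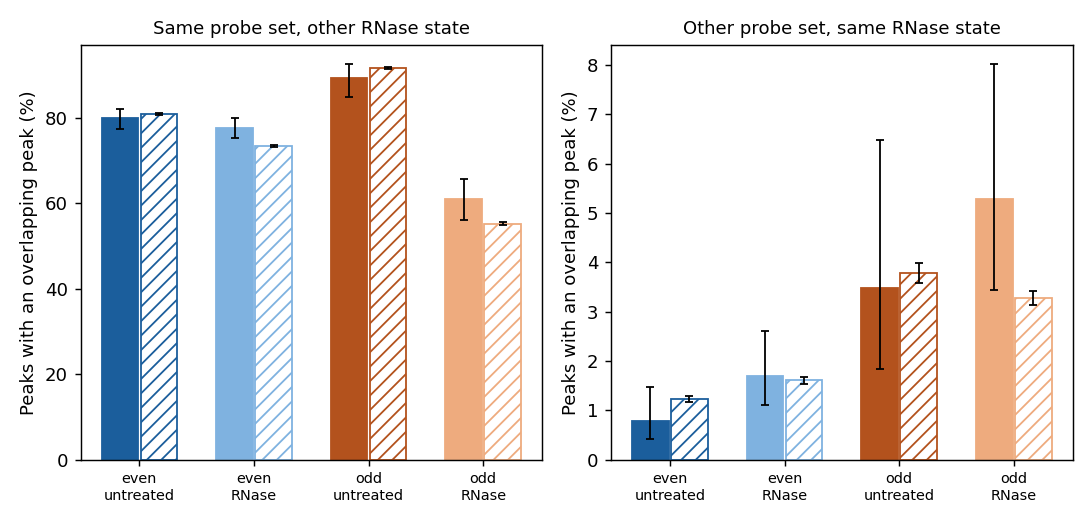
Share of peaks (y axis, %) that overlap a peak of the same probe set in the other RNase state (left) or of the other probe set in the same state (right; the y axes differ), solid bars for peaks within 500 kb of an end and hatched bars for the rest, with Wilson 95% intervals for counting error. Sharing between RNase states lies between 55.2% and 91.6%, and sharing between probe sets between 0.785% and 5.28%. Solid bars exceed hatched ones by more than counting error in the RNase-treated lists on the left (even 77.6% against 73.4%, odd 60.9% against 55.2%). On the right this holds only for the RNase-treated odd list (5.28% against 3.27%).

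Taking the peaks of all lists as sites, by merging overlapping intervals, gave 1784 sites with a member. Sites of even lists alone made up 77.2% of them (75.2 to 79.1) and 68.8% of the 192194 sites elsewhere, and sites of odd lists alone made up 21.5% (19.6 to 23.4) and 29.9%. The largest class was the 888 sites held by both even lists and no odd list, 49.8% against 42.9% elsewhere. Sites of any even and any odd list numbered 23, 1.29% (0.861 to 1.93), against 1.28% elsewhere. Only 9 sites with a member were held by all 4 lists, 0.504% against 0.513% elsewhere.

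Regions shared by the probe sets were listed next, since a contact of DINO should be seen by each set. Of the 1292 untreated regions of this kind 9 lay in the zones, which is 0.439 per Mb in the zones and 0.439 per Mb elsewhere. Of the 1866 RNase-treated regions 20 lay in the zones, 0.976 per Mb against 0.632 elsewhere. The strongest by the smaller of its folds was on 20q at chr20:62557953-62558368, 344 kb from the end. Its folds were 18.0 in the untreated even and 28.9 in the untreated odd list, and 34.1 and 47.9 after RNase, where it was again the first of the region list. The second untreated region was on 21q at chr21:47644388-47644739 (even 71.3, odd 13.5, and 91.3 and 8.23 after RNase).

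The other untreated regions were strong in 1 probe set at most. On 22q at chr22:50786552-50786895 the odd fold was 41.04 and the even fold 7.43, and on 5p at chr5:510063-510353 they were 19.4 and 7.38. On 6q at chr6:170742932-170743463 the even fold was 77.99 and the odd fold 6.97, on 3q at chr3:197676825-197677306 they were 74.96 and 6.73, and on 21q at chr21:47832571-47832955 they were 66.8 and 5.68. The 2q region held the highest untreated even member described above. Of these 9 regions 8 overlapped an RNase-treated peak.

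The remaining region, on 11p at chr11:386446-386640, had no RNase-treated peak of the even or the odd set over it. It was 195 bp wide, 193 kb from the end, with an even fold of 8.75 and an odd fold of 7.54, and the nearest RNase-treated peak was 3006 bp away. Over the whole genome 1.16% of the untreated regions of both sets lacked an RNase-treated peak, and 1 of 9 is too few to set against that share. Among peaks with a −log10 q-value from 10 upward no such region was left in the zones. In the reverse direction 1 of the 20 RNase-treated regions overlapped no untreated peak, where 5.95% of all did not. It lay on 10q at chr10:135080689-135080971, with an even fold of 5.90 and an odd fold of 12.98, and the nearest untreated peak was 125 bp away.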

How the data were processed

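DNA recovered by ChIRP was sequenced in U2OS libraries, processed with Bowtie and MACS2 on hg19, per the submitters' processing notes. Versions, threshold and control library of the calls are not stated there. Peaks were called per library, per the peak names. In the deposited lists the score is 10 times the −log10 q-value, the fold is the authors' ratio at the summit, and the summit's −log10 q-value (2.01 or more) and −log10 p-value are also theirs. Read depth is unknown, so a longer list need not mean more recovered DNA. The rest of each chromosome is the length between its outermost peaks outside the zones, centromere gaps included. Peaks overlapped at 1 bp or more. Intervals are exact binomial (density), Wilson (shares), Newcombe (differences) and order-statistic (medians), all at 95%, and cover counting error only. Python 3.11.15, numpy 2.4.6, pandas 2.3.3, scipy 1.17.1 and matplotlib 3.10.9 were used. The counting was tested on simulated lists, where all 2050 planted members and 14375 planted overlaps were found.

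The members, comparisons and the rule for named positions were chosen with earlier results of these data known. The rule names the 3 highest and 3 lowest ends by untreated even and odd counts (with ties), the highest-fold and the widest member of each list, the untreated regions of both sets (at most 10), regions of both sets without a peak of the other RNase state, and the peaks beside the threshold. Alternatives were zones of 250 kb and 1 Mb, a −log10 q-value from 10 upward, occupied 100 kb bins, leaving out the fullest end, reciprocal 50% overlap and weighting by strength. Leaving out chromosome X was added after the data were seen. A planned search for telomere-like sequence, GC content and genes was not run, since no hg19 sequence or annotation was used here. The gene table of GRCh38.p14 served only for names of outermost genes, leaving out entries without a gene name.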

Additional observations from a re-analysis of the deposited data

Results flagged for a closer look

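The share of members with a peak of the same probe set in the other RNase state, minus that of the rest, had opposite signs by RNase state. The 2 directions count nearly the same overlaps over lists of different length, so they are not separate results. Odd members gave 231 of 259 and 231 of 379, and even members 915 of 1147 and 910 of 1173. Members minus the rest gave -1.12 percentage points (even, -3.55 to 1.12) and -2.42 points (odd, -6.80 to 0.820) in the untreated lists, neither larger than counting error. In the RNase-treated lists it was 4.15 points (even, 1.66 to 6.46) and 5.76 points (odd, 0.746 to 10.6). The last of these was -2.06 points among peaks with a −log10 q-value from 10 upward. The share with a peak of the other probe set had the same signs, with -0.449 points (even) and -0.303 points (odd) untreated, and 0.0928 points (even) and 2.01 points (odd) after RNase. Of these only the last was larger than counting error. Each state has 1 library per probe set, and the difference between the states was not tested.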

How the results depend on the processing

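Of 80 values recomputed under the alternatives, 64 stayed within the 95% counting interval, or within 1.5 times for counts of regions, 15 moved further and 1 reversed. The even density ratio moved with a zone of 250 kb, to 1.45 untreated and 1.32 after RNase, and was 1.48 and 1.38 over the 100 kb bins that held any peak, 99.0% of the zones and 94.0% of the rest. The intervals of the odd ratios included 1 except with a zone of 1 Mb untreated (1.10) and over those bins after RNase (0.898). With a zone of 1 Mb the shares of untreated peaks with an RNase-treated counterpart were below the rest by more than counting error (-2.003 points even, -3.49 odd). With a −log10 q-value from 10 upward the RNase-treated odd list gave -2.06 points for sharing with the untreated list (reversed), 0.0636 points for sharing with the even list and -15 bp for median width. Reciprocal 50% overlap gave 1.27 points for the untreated odd list and its RNase-treated counterpart. The cause of these moves was not tested. Regions of both untreated sets numbered 27 with a zone of 1 Mb, 3 among peaks from 10 upward and 2 with reciprocal overlap, and of both RNase-treated sets 50, 8 and 7, where the zone is larger or fewer peaks are used by construction. Untreated regions without an RNase-treated peak numbered 0 with a −log10 q-value from 10 upward, and RNase-treated regions without an untreated peak 3 with a zone of 1 Mb, 0 with a −log10 q-value from 10 upward and 0 with reciprocal overlap. Depth is unknown, so the absence of a peak from a list sets no limit on recovery there.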
